A study of Mus musculus with 2 samples.

Results

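The genes examined were the nuclear genes of oxidative phosphorylation, the process by which mitochondria turn the energy of nutrients into ATP. They were taken by symbol from the protein-coding genes of GENCODE mouse release M21, as those with the prefixes Atp5, Cox4i, Cox5, Cox6, Cox7, Cox8, Nduf and Uqcr, together with Cyc1, Cycs and the Sdh subunit genes. The rule itself used no measured value, but it was chosen with earlier results of these data known. It gave 96 gene entries of 21853 protein-coding genes. These entries had 95 symbols, because Atp5o was annotated as 2 overlapping entries on chromosome 16. ATAC-seq, which marks open chromatin by letting a transposase insert adapters where DNA is exposed, was performed on primary haematopoietic stem cells (HSC). The cells came from C57BL/6J mice, adults of 5 to 6 weeks. There was 1 group of 2 libraries, biological replicates 1 and 2, without any genetic change, treatment or second cell type. Both libraries carried the same donor identifier, so it is unknown whether they came from separate animals, and the difference between them may be technical. The labels name no sort markers, and an input of 50000 cells is stated for replicate 2 alone.

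Electrons from NADH enter the respiratory chain at complex I, those from succinate at complex II, and both pass through complex III, cytochrome c and complex IV to oxygen, while complex V makes ATP from the proton gradient. A few subunits of complexes I, III, IV and V are encoded by mitochondrial DNA, and nuclear genes encode the rest, so both genomes have to be read together. Adult HSC are known for low mitochondrial activity at rest and for a need of mitochondrial respiration when they divide and differentiate. Some complex IV subunits exist as a broadly used form and a form restricted to muscle, lung or testis, which makes them a comparison within a single enzyme. Ndufa4l2, which is induced by hypoxia, was grouped with the restricted forms here.

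A gene was counted as open when a peak region lay within 1000 bp of a transcription start site (TSS) of any of its protein-coding transcripts. The signal of a promoter is the authors' value of the highest peak in its region, and that peak may lie outside the window. The value has no stated scale and was compared within a list only. The conservative list, which holds peaks passing an irreproducible discovery rate (IDR) threshold between the replicates, had 31532 regions. The IDR lists of the single libraries had 34588 regions in replicate 1 and 22434 in replicate 2, and read depth is unknown because the files list peaks, not reads. Promoters of 5 genes active in stem cells (Kit, Spi1, Meis1, Runx1 and Lmo2) were open in the conservative list with signals of 5.76 to 8.42. Those of 5 liver, muscle and glial genes (Alb, Apoa1, Acta1, Myh1 and Gfap) and of the red cell factor gene Gata1 were open in no list, and that of the haem enzyme gene Alas2 was open in the replicated list alone (3.20). In cells measured in bulk, a promoter that is open in fewer cells and one that is less open in every cell cannot be told apart.

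Most nuclear genes of oxidative phosphorylation had an open promoter in HSC, and most of these promoters stood above the midpoint of all open promoters in signal. In the conservative list, 87 of the 96 entries were open, or 90.6%, against 52.3% of all protein-coding genes. Replicate 1 had 88 of them open (52.7% of all genes) and replicate 2 had 87 (46.2% of all genes). The median signal of the open entries was 11.8 in the conservative list, with a range of 6.57 to 16.4, against 9.78 for all open genes. It was 13.0 in replicate 1, where all open genes had 10.8, and 8.59 in replicate 2, where all open genes had 7.99. Of the open entries, 68 (78.2%) exceeded the median of all open genes in the conservative list, 66 of 88 (75%) did so in replicate 1 and 54 of 87 (62.1%) in replicate 2, where that median by construction divides all open genes into equal parts. Their excess over other open genes was thus smallest in the library with the shorter list. The series has 1 group, so no test over samples exists for these shares.

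**Figure D1:**
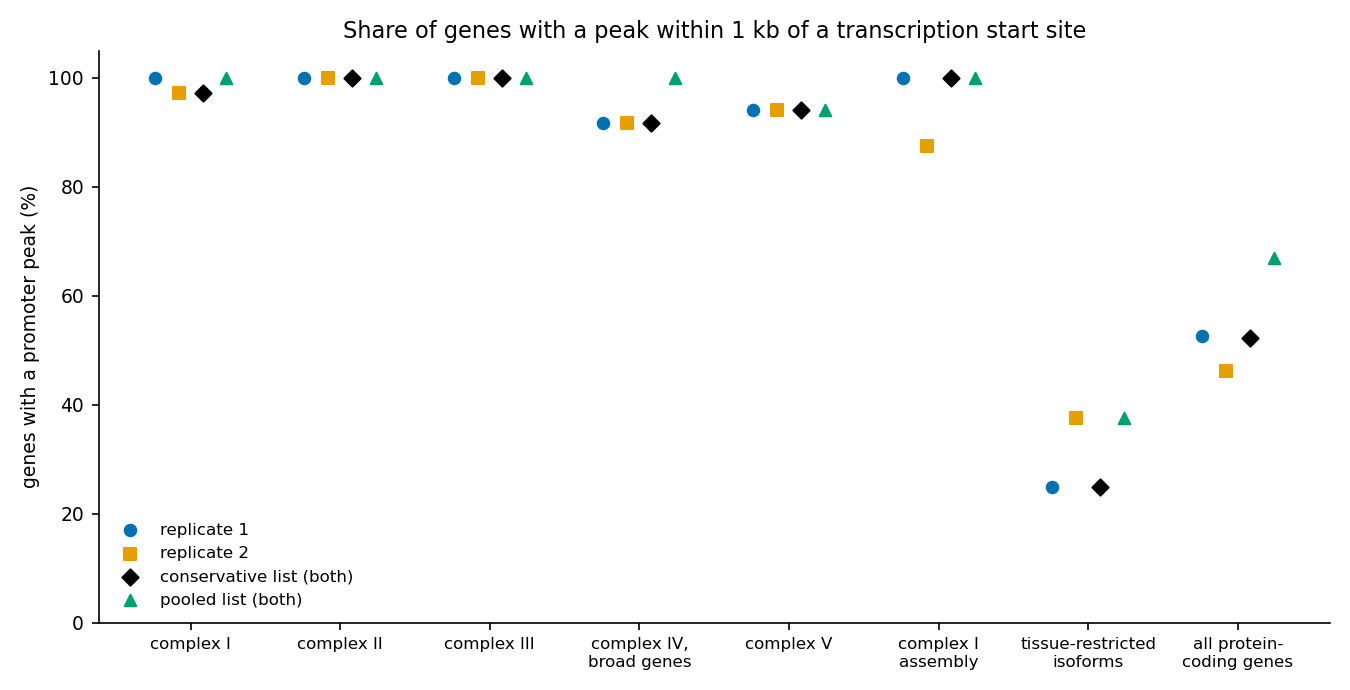
Share of genes with a promoter peak (vertical axis, percent) for each complex, the complex I assembly factors, the tissue-restricted isoforms and all protein-coding genes, in the IDR list of replicate 1 (circles), that of replicate 2 (squares), the conservative list (diamonds) and the pooled list (triangles). The complexes, with complex IV shown by its broadly used genes, and the assembly factors lie between 87.5% and 100%, the tissue-restricted isoforms between 25% and 37.5%, and all genes between 46.2% and 67%.

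Complex I, the NADH dehydrogenase and largest enzyme of the chain, had 35 of its 36 subunit genes open in the conservative list (97.2%), with a median signal of 11.7. Its catalytic core, the subunits that carry electrons from NADH to ubiquinone and descend from bacterial ancestors, had 7 of 7 nuclear genes open with a median of 11.6. The supernumerary subunits around the core had 28 of 29 open with a median of 11.8, so the medians of core and shell lay close together. Values in brackets are those in the IDR lists of replicate 1 and replicate 2, in that order. Among the core genes, Ndufv1, which binds NADH and its flavin, had 12.5 (14.5 and 9.26), and its partner Ndufv2 had 11.6 (13.4 and 8.53). The core genes Ndufs3, with 11.7 (12.7 and 7.99), and Ndufs8, with 11.5 (12.6 and 9.20), stood close to the complex I median. Lowest were Ndufs7, an iron-sulphur subunit, at 8.04 (9.80 and 6.36) and Ndufs1, the largest subunit, at 7.92 (8.69 and 6.94), both under the all-gene median in each library. The core genes therefore spread over a wide range of promoter signal. Their products are assembled in equal numbers into one enzyme, and a link of signal to subunit number was not tested.

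The 2 open promoters of highest signal among all entries belonged to supernumerary subunits of complex I, and a further one was close behind. Ndufa12 (region chr10:94198637-94199669, mm10) had 16.4 in the conservative list, 18.1 in replicate 1 and 11.9 in replicate 2. Ndufa3 (chr7:3617008-3617823) had 16.2, 18.5 and 11.8 in the same order of lists, and Ndufb3 (chr1:58585856-58586924) had 15.6, 16.1 and 12.0. These promoters ranked above the 92nd percentile of all open genes in both libraries, with Ndufa3 at percentile 99.5 in replicate 1 and 92.5 in replicate 2. At the other end, Ndufb10 (chr17:24723973-24724611) had 6.57, the lowest conservative signal of any open entry, with 7.91 in replicate 1 and 5.92 in replicate 2. Ndufa13, also known as the cell death regulator Grim19, had 7.38, and its peak summit lay 906 bp from its GENCODE TSS and 532 bp from that of Tssk6. By the RefSeq annotation the Ndufa13 start is nearer to the summit, and its window of 300 bases (chr8:69901971-69902270) overlaps the region. The region may belong to either gene.

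The 1 complex I gene without a conservative promoter peak was Ndufs4, an accessory subunit of the electron input arm whose loss in mice gives a model of Leigh syndrome. Replicate 1 gave it a strong promoter peak of 15.2, at percentile 92.4 of open genes. In replicate 2 it was missing from the IDR list and had 5.82 in the more permissive pseudoreplicated list, at percentile 34.7. The best peak at its promoter in the ranked comparison of the libraries scored 514, under the score of 540 that the conservative list requires. The peak called on the pooled reads of both libraries had 12.5, above the complex I median. The promoter of Ndufs4 was thus high in the signal ranks of replicate 1 and low in those of replicate 2.

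The 8 complex I assembly factor genes, whose products build the enzyme without staying in it, were all open in the conservative list, with a median signal of 11.9. Ndufaf5, which hydroxylates Ndufs7, led with 13.8 (13.9 in replicate 1 and 11.0 in replicate 2), followed by Ndufaf2 with 13.3 (15.6 and 9.04) and Ndufaf4 with 12.6 (14.1 and 8.58). Ndufaf3 was lowest at 6.61 (7.32 and 5.46), with the lowest rank of any open entry in replicate 1, at percentile 12.4. Ndufaf1, which acts in the early steps of assembly, had 8.01 and was open in the IDR list of replicate 1 (8.88) and not in that of replicate 2, where its pseudoreplicated peak had 5.71.

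Complex II, succinate dehydrogenase, also works in the citric acid cycle and is the only complex encoded by nuclear genes alone. Its 4 genes were open in each list, all above the all-gene median in the conservative list and in both libraries. Sdha, the flavoprotein that oxidises succinate, had 12.8 (12.3 in replicate 1 and 11.2 in replicate 2), and Sdhb, the iron-sulphur subunit, had 10.9 (11.4 and 9.15). The membrane anchors that hold the haem and ubiquinone had 14.1 for Sdhc (15.3 and 8.63) and 12.0 for Sdhd (12.5 and 8.78). Sdha was highest of the 4 in replicate 2, whereas Sdhc was highest in replicate 1 and lowest in replicate 2, so their order was not stable between libraries.

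Complex III, the cytochrome bc1 complex, had 9 of 9 genes open but the lowest median of the complexes, 10.5 in the conservative list, 11.2 in replicate 1 and 8.12 in replicate 2. Uqcrc2, a core protein of the matrix side, stood apart with 14.8 and nearly equal values of 14.1 in replicate 1 and 14.0 in replicate 2. It ranked at percentile 98.8 in replicate 2 and 85.0 in replicate 1. Uqcrb followed with 13.8 (14.2 and 11.5) and Uqcr10 with 11.8 (13.3 and 8.97). The catalytic subunits were nearer the middle: Uqcrfs1, the Rieske iron-sulphur protein, had 10.5 (10.7 and 9.08) and Cyc1, cytochrome c1, had 10.2 (10.4 and 7.94). Uqcrh, the hinge protein between cytochrome c1 and cytochrome c, was lowest at 8.66 (8.55 and 7.98). Cycs, the somatic cytochrome c that also triggers caspase activation when released, had a signal of 13.7 (13.9 and 11.2), above percentile 83 of open genes in both libraries.

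Complex V, the ATP synthase, had 16 of 17 entries open with a median of 11.6. The entry without a peak in any list was the second annotation of Atp5o, whose single TSS lies inside the first, and the first Atp5o entry, the stalk subunit OSCP, was open at 11.3. Atp5h, subunit d of the peripheral stalk, was highest at 14.1 (15.7 in replicate 1 and 10.3 in replicate 2), followed by Atp5e, the epsilon subunit of the rotor, at 13.7 (15.1 and 10.4), and Atp5c1, the central gamma shaft, at 12.8 (12.7 and 11.8). The catalytic head genes Atp5b and Atp5a1 had 12.0 (12.9 and 10.04) and 10.2 (12.0 and 8.74). Atp5d, the delta subunit next to epsilon in the rotor foot, was lowest at 7.05 (8.47 and 5.17), below the lower quartile of all open genes (7.70), so neighbours in the enzyme stood at opposite ends of the range. The genes Atp5g1, Atp5g2 and Atp5g3 encode the same mature ring subunit c and had 12.7, 11.2 and 11.8. Atp5s, factor B, was counted apart from the subunits and had 13.3 (15.2 and 9.10).

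**Figure D2:**
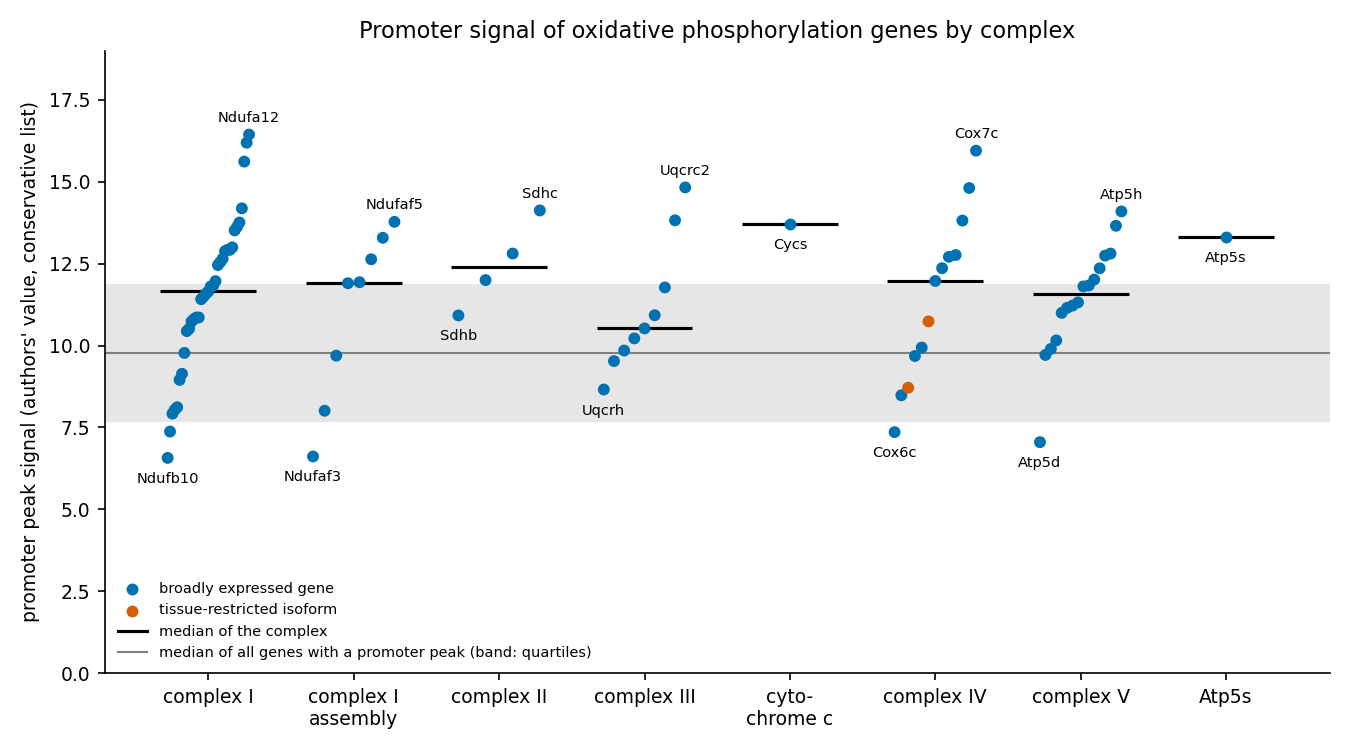
Promoter signal in the conservative list (vertical axis, authors' value) of each open gene, one point per gene in rising order within its complex, with the complex median as a bar and the median and quartiles of all open genes as a line and band. Complex medians lie between 10.5 (complex III) and 12.4 (complex II), all above the all-gene median of 9.78, and genes of one complex range from 6.57 to 16.4 (complex I).

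Complex IV, cytochrome c oxidase, had the lowest share of open genes among the complexes, 13 of 20 in the conservative list (65%), and its closed genes were mostly isoforms of restricted tissues. Of the 12 broadly used genes 11 were open (91.7%), with a median of 12.4. Cox7c (chr13:86046203-86047026) was highest at 16.0, with 15.0 in replicate 1 and 14.9 in replicate 2, and its rank in replicate 2, percentile 99.5, was the highest of any entry there. Cox6b1, on the side that binds cytochrome c, had 14.8 (15.4 and 11.0), and Cox8a had 13.8 (14.7 and 11.1). Cox4i1 and Cox5a, which help to regulate the enzyme, had 8.48 (10.9 and 5.97) and 9.68 (10.1 and 8.42). Cox7a2l, which joins complexes III and IV into supercomplexes and was placed here by its symbol, had 12.7 (13.9 and 9.71). Cox6c was lowest at 7.36 and, in the IDR lists, was open in replicate 1 (10.4) and not in replicate 2, where its pseudoreplicated peak had 4.61.

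The 1 broadly used complex IV gene without a conservative peak was Cox7b, on chromosome X. Its promoter peaks were weak in both libraries, 4.30 in the pseudoreplicated list of replicate 1 and 4.91 in the IDR list of replicate 2, and the value in replicate 2, at percentile 3.83, was the lowest of any open entry there. The ranked comparison gave it a score of 524, again under 540. The nearest conservative region lay 3563 bp away, at the promoter of the magnesium transporter gene Magt1. Unlike Ndufs4, which was high in one library, Cox7b was low in both.

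Of the 8 genes for restricted isoforms, 2 were open in the conservative list (25%), against 52.3% of all protein-coding genes. Both were below their broadly used partner in each list. Cox7a1, the heart and skeletal muscle form, had 10.7 (12.4 in replicate 1 and 7.48 in replicate 2), and Cox7a2 had 12.8 (13.1 and 9.73). Cox6b2, the testis form, had 8.71 (9.76 and 6.72), and Cox6b1 had 14.8 (15.4 and 11.0). Cox4i2, the lung form that responds to low oxygen, had no conservative peak and a ranked score of 505. It was open in replicate 2's IDR list at 6.37, beside 5.97 for Cox4i1 in the same list, and in replicate 1's pseudoreplicated list at 6.02, beside 10.9 for Cox4i1. Cox4i2 against Cox4i1 in replicate 2 was the only place where the restricted form exceeded its partner, by a margin in a single library that has no replicate check.

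The other 5 restricted genes were open in none of the 8 lists. Cox6a2 and Cox8b are heart and skeletal muscle forms, and their partners Cox6a1 and Cox8a had 9.94 (9.86 in replicate 1 and 8.38 in replicate 2) and 13.8 (14.7 and 11.1). Cox7b2 and Cox8c are testis forms, and the nearest conservative region lay 619371 bp from the TSS of Cox7b2 and 20455 bp from that of Cox8c. Ndufa4l2 is induced by hypoxia through HIF-1, and its partner Ndufa4, now known as a complex IV subunit, had 12.0 (13.8 and 8.49). A region with a signal of 5.88 lay 1793 bp from the TSS of Ndufa4l2, outside the promoter window, and Ndufa4l2 was also the entry with the most non-promoter regions within 50000 bp, 6. Closed promoters were thus not confined to genes far from accessible chromatin. Cox8b likewise had a region 2735 bp away and 5 within 50000 bp.

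**Figure D3:**
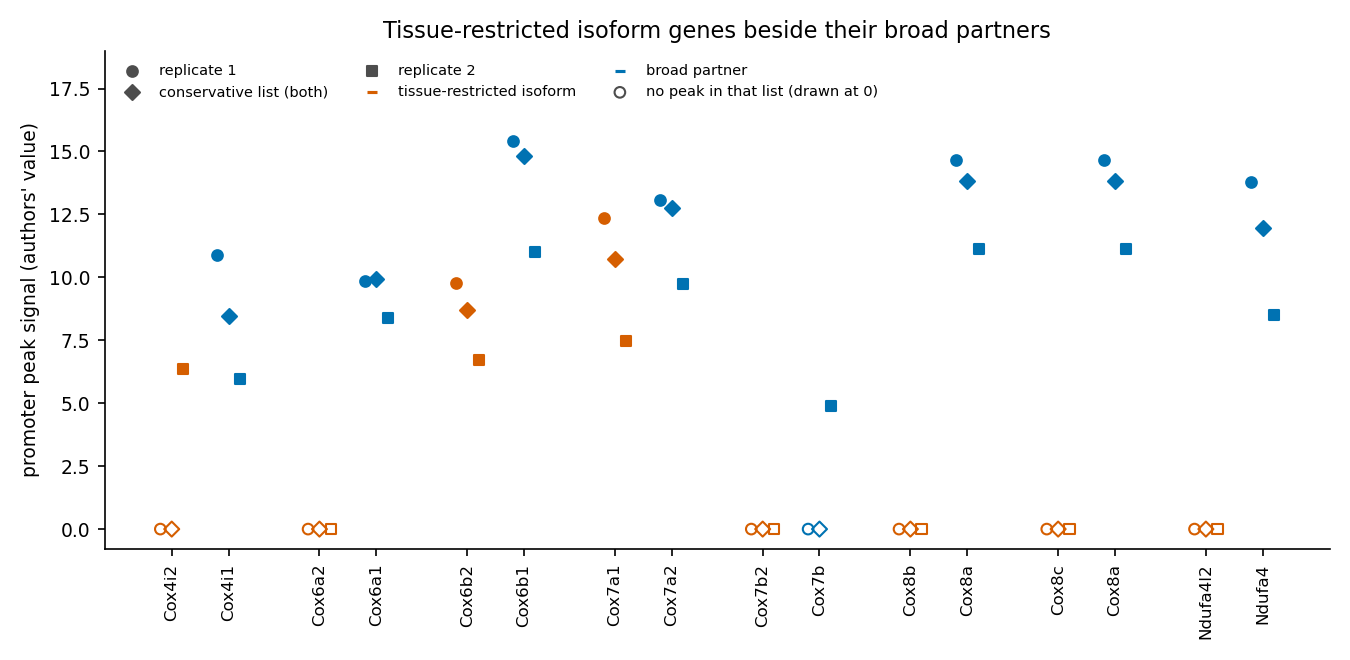
Promoter signal (vertical axis, authors' value) of each restricted isoform gene (left, orange) and its broadly used partner (right, blue) in replicate 1 (circles), the conservative list (diamonds) and replicate 2 (squares), with open symbols at 0 for a gene without a peak in that list. Of the restricted genes, Cox6b2 and Cox7a1 have a peak in all 3 lists and Cox4i2 in replicate 2 alone.

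The promoters of 2 isoform pairs show what the closed and the open forms look like as sequence. They are printed from RefSeq (GRCm38.p6), 300 bases each, 250 before to 50 after the annotated start, 5′ to 3′ on the gene's strand, with each CG dinucleotide in capitals, because CG-rich promoters tend to be open in many tissues. Cox8b lies at chr7:140900397-140900696 (minus strand) and Cox8a at chr19:7217567-7217866 (minus strand). Cox7a1 lies at chr7:30183921-30184220 (plus strand) and Cox7a2 at chr9:79759804-79760103 (minus strand).
Cox8b: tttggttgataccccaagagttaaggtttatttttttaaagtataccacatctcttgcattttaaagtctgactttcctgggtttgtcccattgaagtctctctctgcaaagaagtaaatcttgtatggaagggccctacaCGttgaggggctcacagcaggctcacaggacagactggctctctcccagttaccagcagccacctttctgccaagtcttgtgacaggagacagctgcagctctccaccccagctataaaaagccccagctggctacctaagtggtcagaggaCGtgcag
Cox8a: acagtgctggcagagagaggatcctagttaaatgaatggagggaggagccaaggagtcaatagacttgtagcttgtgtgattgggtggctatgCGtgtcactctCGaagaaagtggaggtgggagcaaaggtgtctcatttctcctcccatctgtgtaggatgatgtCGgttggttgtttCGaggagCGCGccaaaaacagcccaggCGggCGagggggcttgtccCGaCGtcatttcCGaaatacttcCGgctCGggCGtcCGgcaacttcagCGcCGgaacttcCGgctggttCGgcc
Cox7a1: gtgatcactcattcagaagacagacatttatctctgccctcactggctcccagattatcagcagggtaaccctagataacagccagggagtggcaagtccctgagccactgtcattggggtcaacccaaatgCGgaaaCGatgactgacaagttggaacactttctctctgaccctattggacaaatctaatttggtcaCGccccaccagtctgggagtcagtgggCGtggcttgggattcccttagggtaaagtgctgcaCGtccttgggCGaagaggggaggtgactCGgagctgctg
Cox7a2: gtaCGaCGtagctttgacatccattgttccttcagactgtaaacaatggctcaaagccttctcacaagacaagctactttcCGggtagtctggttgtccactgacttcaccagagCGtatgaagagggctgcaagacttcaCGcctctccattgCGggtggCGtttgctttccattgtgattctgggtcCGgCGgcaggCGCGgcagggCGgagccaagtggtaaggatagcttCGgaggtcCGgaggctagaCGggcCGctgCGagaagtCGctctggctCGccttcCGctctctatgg

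The closed Cox8b promoter held 2 CG dinucleotides and the open Cox8a promoter 19. The pair of muscle and broad forms that were both open differed in the same direction, with 7 in Cox7a1 and 20 in Cox7a2. As the ratio of observed to expected CG, the values were 0.115 for Cox8b and 0.842 for Cox8a, and 0.333 for Cox7a1 and 0.833 for Cox7a2. Cox7a1 therefore had an open promoter at a CG content at which few genes did: of all genes with a ratio under 0.4, 18.6% were open in the conservative list.

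RefSeq promoter windows were at hand for 75 of the 96 entries and 16515 genes in all. The entries had a median CG ratio of 0.829, against 0.597 for all genes and 0.771 for all open genes. Their median GC content was near that of all genes (58.3% against 57.0%). Among open genes it was 59% for the entries and 60.7% for all. In the class with a ratio of 0.8 or more, 41 of 41 entries were open, against 84.1% of all genes. Between 0.6 and 0.8, 20 of 21 were open (78% of all genes), and between 0.4 and 0.6, 9 of 10 (56.2% of all genes). Under 0.4 there were 3 entries, of which Cox7a1 was open and Cox7b and Cox8b were not. Of the 9 closed entries 5 had no window, and 71 of the 75 entries with a window were open, against 87 of all 96. The part of CG content in the open share was not tested.

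Accessible regions at these genes were centred close to the TSS. The peak summit lay within 100 bp of a TSS at 73 of the 87 open entries (83.9%), against 63.7% of all open genes, with a median position of -28 bp, where minus means upstream (-40 bp for all open genes). The regions had a median width of 958 bp, against 873 bp. For 13 entries (14.9%) the summit was nearer to the TSS of another gene, against 10.5% of all open genes.

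Many of the genes shared their promoter with a gene read in the opposite direction. A protein-coding TSS on the other strand lay within 1000 bp upstream of 31 of the 96 entries (32.3%), against 9.87% of all genes, and of 35.6% of open entries, against 17.3% of open genes. Complex II had 3 such genes of 4, among them Sdha with Ccdc127 at 29 bp and Sdhd with Timm8b, an import chaperone of the inner membrane, at 98 bp. Ndufs6 faced Mrpl36, a gene of the mitochondrial ribosome, at 51 bp, so that 1 region with a signal of 8.12 was counted for 2 mitochondrial genes. Ndufa7 faced Rps28, a gene of the cytosolic ribosome, at 10 bp, and Ndufs1 faced the elongation factor gene Eef1b2 at 3 bp. Atp5j shared a region of 2004 bp (signal 9.90) with Gabpa, whose product is itself a regulator of respiratory chain genes. The closest facing starts of Atp5j and Gabpa were 686 bp apart. The summit lay 11 bp from a TSS of Gabpa and 567 bp from the nearest GENCODE TSS of Atp5j. A second RefSeq window of Atp5j (chr16:84834927-84835226) holds the summit, so by that annotation an Atp5j start lies nearer. At such promoters 1 peak was counted for both genes, and the signal cannot be assigned to either.

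Sequence motifs of factors known to control respiratory chain genes were searched as exact letters on both strands of the promoter windows. NRF1, a master regulator of these genes, was searched as the 10 letters that stand in capitals in the sequences printed for it, which read the same on both strands. ETS factors such as GABP were searched as CCGGAAG, YY1 as AAGATGGC, CREB as TGACGTCA and SP/KLF factors as GGGCGG, and a base could count for more than one motif. The NRF1 letters were in 7 of 75 entries (9.33%), against 1.53% of all genes and 2.44% of all open genes. The YY1 letters were in 10 (13.3%), against 3.63% and 5.53%, and the CREB letters in 5 (6.67%), against 2.64% and 3.88%. The ETS letters were in 18 (24%), against 13.4% of all genes and 21.2% of open genes. The SP/KLF letters were in 34 (45.3%, and 46.5% of open entries), against 51% and 69.4%, so they were the motif that fewer entries held than open genes at large. A gene counted when any of its windows held the letters. More than 1 window was present for 5 of the 75 entries, 2679 of 16515 genes and 1841 of 9042 open genes. The part of this difference in the shares was not tested.

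**Figure D4:**
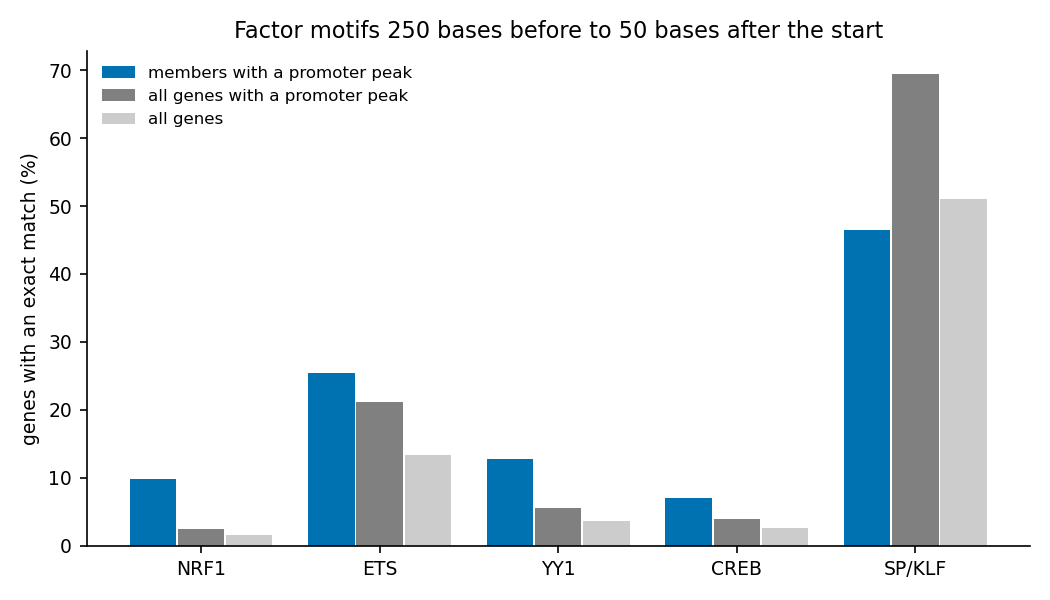
Share of genes (vertical axis, percent) with an exact match to each motif in the window from 250 bases before to 50 bases after the start, for open genes of oxidative phosphorylation (blue, 71 genes), all open genes (dark grey, 9042) and all genes (light grey, 16515). The NRF1, YY1 and CREB bars are higher for the oxidative phosphorylation genes (9.86%, 12.7% and 7.04%) than for all open genes (2.44%, 5.53% and 3.88%), and the SP/KLF bar is lower (46.5% against 69.4%).

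The NRF1 matches fell in genes of each of complexes I, III, IV and V and of complex I assembly. Each of the 7 genes had a conservative promoter peak, as had 71 of the 75 entries with a window. Of all 252 genes with the NRF1 letters, 221 had one. The 7 matches are printed as 30 bases from RefSeq (GRCm38.p6) on the gene's strand, with the NRF1 letters in capitals, to show that the match is embedded in unlike flanks. Ndufa11 is at chr17:56717692-56717721 (plus strand), Ndufaf4 at chr4:24897960-24897989 (plus strand), Ndufaf5 at chr2:140170652-140170681 (plus strand), Uqcrc1 at chr9:108936668-108936697 (plus strand), Cox6a1 at chr5:115349101-115349130 (minus strand), Atp5g2 at chr15:102671070-102671099 (minus strand) and Atp5k at chr5:108434430-108434459 (minus strand).
Ndufa11: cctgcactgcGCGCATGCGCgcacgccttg
Ndufaf4: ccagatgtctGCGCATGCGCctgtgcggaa
Ndufaf5: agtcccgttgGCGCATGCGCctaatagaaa
Uqcrc1: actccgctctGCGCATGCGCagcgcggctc
Cox6a1: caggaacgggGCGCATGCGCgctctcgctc
Atp5g2: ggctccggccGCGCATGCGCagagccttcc
Atp5k: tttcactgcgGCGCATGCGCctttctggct

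The matches began between position -162 (Cox6a1) and position 30 (Uqcrc1), counted from the annotated start. Signals at these promoters were 8.95 for Ndufa11, 9.94 for Cox6a1, 10.9 for Uqcrc1, 11.2 for Atp5g2, 12.4 for Atp5k, 12.6 for Ndufaf4 and 13.8 for Ndufaf5. All open entries ranged from 6.57 to 16.4. Open entries with an NRF1, ETS or YY1 match had a median signal of 11.4 (30 genes), against 12.0 for those with none of the 3 (41 genes).

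The YY1 matches lay mostly just after the start. Of the 10 matches, 9 lay after the start on the gene's own strand (90%), against 40.4% of the 646 matches in all genes, and 8 began 20 to 40 bases after it (80%), against 22.4%. Of the 9 genes, 7 encode complex I subunits, 1 encodes the assembly factor Ndufaf8 and 1 encodes Atp5j2, subunit f of the ATP synthase. They are printed as 30 bases from RefSeq (GRCm38.p6) on the gene's strand with the YY1 letters in capitals, since these letters hold an ATG. Ndufs4 is at chr13:114388045-114388074 (minus strand), Ndufs6 at chr13:73328433-73328462 (minus strand), Ndufs7 at chr10:80249462-80249491 (plus strand), Ndufa3 at chr7:3617384-3617413 (plus strand), Ndufa9 at chr6:126849097-126849126 (minus strand), Ndufb8 at chr19:44555393-44555422 (minus strand), Ndufc1 at chr3:51408915-51408944 (minus strand), Ndufaf8 at chr11:120098933-120098962 (plus strand) and Atp5j2 at chr5:145191500-145191529 (minus strand).
Ndufs4: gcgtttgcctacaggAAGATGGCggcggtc
Ndufs6: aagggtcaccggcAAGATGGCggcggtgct
Ndufs7: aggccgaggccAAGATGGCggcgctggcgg
Ndufa3: ccgccaagaacAAGATGGCcgggagtaagt
Ndufa9: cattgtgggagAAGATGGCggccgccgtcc
Ndufb8: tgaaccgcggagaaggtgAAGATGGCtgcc
Ndufc1: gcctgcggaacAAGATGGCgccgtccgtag
Ndufaf8: aggcagggcccAAGATGGCggcgccctcga
Atp5j2: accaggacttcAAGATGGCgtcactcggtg

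In 8 of these 9 genes, Ndufaf8 being the exception, the ATG inside the letters was the annotated start codon of the gene, against 166 of 261 such matches in all genes (63.6%). A motif at that place overlaps the protein-coding sequence, so its letters are shared by the start of translation and by the possible binding site. Of the 9 genes, Ndufa3 (16.2) had one of the highest promoter signals of all entries and Ndufs4 had no conservative peak. The promoters of Ndufs7 (8.04) and Ndufs6 (8.12) stood under the all-gene median.

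The libraries gave the same call for most entries but ordered their promoters differently. Of the 96 entries, 85 were open in both IDR lists (88.5%, against 44.8% of all genes) and 6 in neither (6.25%, against 45.8%). In replicate 1 alone 3 were open (3.12%, against 7.96% of all genes), and in replicate 2 alone 2 (2.08%, against 1.41%). The entries open in replicate 1 alone were Cox6c (10.4), Ndufaf1 (8.88) and Ndufs4 (15.2), and those open in replicate 2 alone were Cox4i2 (6.37) and Cox7b (4.91). Each of these 5 was open in the other library's pseudoreplicated list, so 90 entries were open in both pseudoreplicated lists, which had 64.2% of all genes open in replicate 1 and 62.5% in replicate 2. The lists made from both libraries also had 90 entries open, namely the permissive IDR list (57% of all genes), the replicated list (65.8%) and the list called on pooled reads (67%).

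Across the 85 entries open in both IDR lists, the signals of the libraries had a Spearman coefficient of 0.505, against 0.711 across the 9787 genes open in both. The points are genes that share 2 libraries and were narrower in range than all genes, and they are not independent replicates. The signal was higher in replicate 1 at 84 of the 85 entries, as it was at 95.2% of all such genes, so levels were compared by percentile among the open genes of each list. Ndufb6, a membrane arm subunit of complex I, stood at percentile 88.0 in replicate 1 and 29.3 in replicate 2. The ATP synthase genes Atp5k (93.7 and 41.4), Atp5j2 (84.5 and 33.8) and Atp5g3 (85.8 and 38.6) and the complex I genes Ndufc1 (97.4 and 47.0) and Ndufc2 (94.6 and 44.3) also ranked higher in replicate 1. Ndufaf7, a methyltransferase of complex I assembly, showed the largest gap the other way, at percentile 49.8 in replicate 1 and 91.2 in replicate 2. It was the 1 entry with a higher signal in replicate 2 (11.5, against 10.8). Of the 85 entries, 48 (56.5%) were above the all-gene median in both libraries, against 42.2% of all genes open in both, and 14 (16.5%) were not above it in either, against 34.1%, so the remaining entries changed sides between the libraries.

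**Figure D5:**
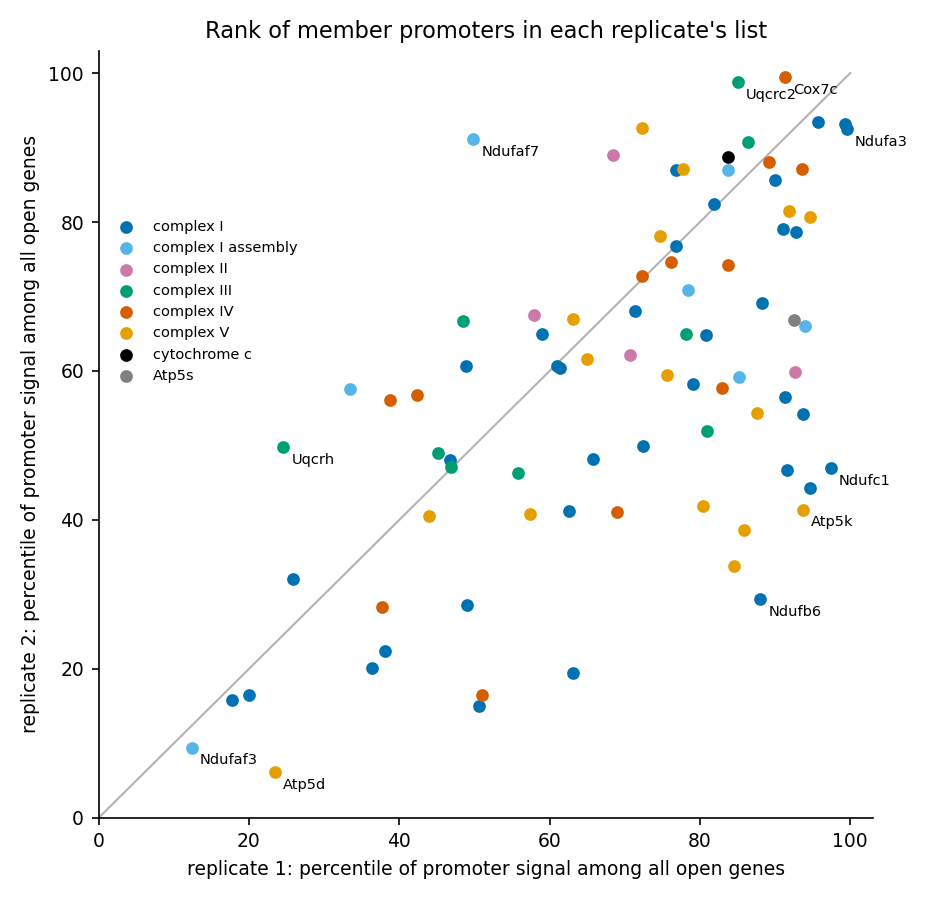
Percentile of each gene's promoter signal among all open genes of the list, in replicate 1 (horizontal) and replicate 2 (vertical), for the 85 genes open in both IDR lists, coloured by complex, with a line of equal rank. Ndufb6, Atp5k and Ndufc1 lie far below the line, Ndufaf7 far above it, and Ndufa3, Uqcrc2 and Cox7c near the upper right corner.

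In complexes I and V, fewer genes stood above the all-gene median in replicate 2 than in replicate 1. Of the open complex I genes, 28 of 36 exceeded the all-gene median in replicate 1 and 19 of 35 did so in replicate 2. For complex V the counts were 14 of 16 in replicate 1 and 9 of 16 in replicate 2. For complex III they were 5 of 9 in each library, for complex II 4 of 4 in each, and for complex IV 9 of 13 in replicate 1 and 9 of 14 in replicate 2. With 1 library on each side these differences have no replicate check. The part that the shorter list of replicate 2 plays in them was not tested.

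The genes around the pathway were open as well. Of 49 further genes for assembly of the complexes, their regulation and the carriers that serve them, 48 were open in the conservative list, 47 in replicate 1's IDR list and 45 in replicate 2's. In the same lists, 52.3%, 52.7% and 46.2% of all protein-coding genes were open. The 1 gene open in no list was Cyct, the testis form of cytochrome c, whose somatic counterpart Cycs had 13.7. Assembly factors of complexes II to V were open in 25 of 25 cases, with a median of 11.2 and a range of 5.59 (Cox20) to 14.4 (Cox16, an assembly factor of complex IV). The 6 further complex I assembly genes were all open, with Ecsit highest at 16.1. The 12 regulators were all open but had a lower median of 9.82, with Gabpa at 9.90, Nrf1 at 8.47, Yy1 at 8.21, and the related coactivators Ppargc1a, Ppargc1b and Pprc1 at 7.69, 5.44 and 12.1. The factors that transcribe mitochondrial DNA stood higher, with Tfb2m at 12.9, Polrmt at 11.7 and Tfam at 10.8. Among the carriers, the ADP/ATP exchangers Slc25a4 and Slc25a5 had 13.0 and 12.5 and the phosphate carrier Slc25a3 had 13.3, whereas Ucp2, an inner membrane carrier known from blood cells, had 6.77 and Atpif1, the inhibitor of complex V, had 8.64. Another mitochondrial set is that of the mitochondrial ribosomal protein genes, whose ribosome makes the subunits encoded by mitochondrial DNA. The oxidative phosphorylation genes were open in 90.6% of cases, and 78.2% of the open ones exceeded the all-gene median. The ribosomal genes were open in 75 of 78 cases (96.2%) with a median of 11.3, and 58.7% of the open ones exceeded it. In replicate 1's IDR list the entries were open in 91.7% of cases and the ribosomal genes in 100%, with 75% and 67.9% of the open ones above the all-gene median. In replicate 2's the order of the open shares turned, with 90.6% of the entries and 84.6% of the ribosomal genes open, and 62.1% and 53% of the open ones above the median. The differences between these sets were not tested.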

How the data were processed

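ATAC-seq peaks were analysed for 2 libraries of 1 group. The authors deposited peak lists on mm10, per the labels, as narrowPeak records: IDR thresholded and pseudoreplicated lists of each library, and IDR thresholded, conservative, replicated and pooled pseudoreplicated lists of both. For the aligner, the peak caller and the transposase offset, the tools and settings were not given in the sources used here. The authors' signal per peak, as deposited, has no stated unit, control or scaling. The authors also deposited a score for ranked peaks, with a maximum of 1000, and the conservative list held scores of at least 540. Its signals equal those of the list called on pooled reads. Read depth is unknown, and this limits precision.

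Peaks that overlapped within a list were joined into regions that kept the signal and summit of the highest peak. Promoters were windows of 1000 bp on each side of the TSS of every protein-coding transcript in GENCODE M21. A distal region was one outside every promoter, within 50000 bp. Complexes were assigned by symbol, with Ndufa4 and Ndufa4l2 in complex IV. Promoter windows came from RefSeq (GRCm38.p6), and 75 of 75 equalled the genome sequence. Restricted isoforms and their partners were paired by hand. Python 3.11.15, pandas 2.3.3 and pysam 0.24.0 were used. The caller of open promoters was tested on simulated peaks.

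The members, gene lists and motifs were chosen with earlier results of these data known. Named genes were those without a conservative promoter peak, the 3 of highest signal in each complex, the isoform pairs, the core subunits of complex I (1 is not reported here), the Sdh genes, Cycs, Cyc1, those open in 1 library only and the extremes of rank; others were named after their values were seen. No test was made because there is 1 group. Alternatives were the other lists, each library alone, a signal above the list's median, windows of 500 and 2500 bp, the 5′-most TSS, the summit in the window, overlap of 50% of both regions and motifs within 100 bp of the summit.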

Additional observations from a re-analysis of the deposited data

How the results depend on the processing

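No paired analysis was possible because the series has 1 group. The counts of open genes (all entries, each complex, the restricted isoforms and the further pathway genes) stayed within 1.5 times their value under every alternative run, and 78 to 90 entries were open. The 78 were those with a signal above the median of the list's regions, against 35.4% of all genes, without Atp5d, Cox6c, Ndufa13, Ndufaf1, Ndufaf3, Ndufb10, Ndufs1, Ndufs6 and Ndufs7. Windows of 2500 bp added Ndufa4l2. The median signal of open entries was 8.59 without replicate 1 and 13.0 without replicate 2, against 11.8 in the conservative list, and the lists have no common scale. Entries open in both libraries numbered 76 where the regions had to overlap by 50% of both, against 85 without that rule (44.8% of all genes). The share of all genes under the overlap rule is not given here, so the drop cannot be called particular to these entries. Within 100 bp of the summit, the NRF1 letters were in 5.63% of open entries, against 1.65% of all open genes, and in the promoter windows in 9.86%, against 2.44%. The YY1 letters were in 9.86% near the summit, against 4.22%, and in 12.7% of the promoter windows, against 5.53%. Read depth, which the files do not give, limits what a missing peak shows.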

Other observations

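Regions away from promoters were about as common near the oxidative phosphorylation genes as near other genes. The median was 1 such region within 50000 bp for the entries and 1 for all genes. None lay within that distance of 26 entries (27.1%), against 38.7% of all genes, and among open genes the shares were 26.4% for the entries and 26.8% for all. The entries with 5 or more were Ndufa4l2, Cox8b and Cox7a1, which were all grouped as restricted isoforms, Ndufa4l2 being the hypoxia-induced one. Ndufa4l2 and Cox8b had no promoter peak in any list, and these were picked out by their values.

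Sdhaf1, which inserts iron-sulphur clusters into complex II, had a conservative promoter signal of 11.2 but no peak in the IDR list of either library, and 3.10 in the pseudoreplicated list of replicate 1. The conservative signals are those of peaks called on pooled reads, and the cause of this gap was not tested.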
